A study of Mus musculus with 16 samples.

Results

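The comparison described here asks whether loss of an enhancer of Spi1 acts alike in 2 successive compartments of blood formation, LSKs and GMPs, or in only 1 of them. Interaction genes are those for which the effect of the deletion, taken as (UREΔ GMPs minus WT GMPs) minus (UREΔ LSKs minus WT LSKs), differed from 0 at an adjusted p below 0.05 in 1 fit of all 16 libraries with the replicate number as a block. Of 15935 genes tested, 1047 were interaction genes, which is 6.57%. The UREΔ mice (UREd/d in the labels) lack the upstream regulatory element, or URE, an enhancer of the gene Spi1 that encodes the transcription factor PU.1, and the WT mice were their littermates. All were 8 to 12 weeks old on a C57BL/6 background, and 4 mice per genotype and cell type were used. LSKs were sorted from bone marrow by the markers Lin- Sca-1+ c-Kit+, a gate that takes in hematopoietic stem cells and early multipotent progenitors. GMPs are Lin- Sca-1- c-Kit+ cells positive for Cd16/32, the progenitors of granulocytes and macrophages. Both cell types of the UREΔ mice carry the deletion, and the sources used here do not state whether the LSK and GMP libraries of 1 number come from the same mouse.

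PU.1 is an ETS-family transcription factor that binds purine-rich sites around a GGAA core and activates many genes of monocytes, granulocytes and B cells. Its dose matters, since high levels favour macrophages and lower levels granulocytes or B cells, and its partners include RUNX1 and the C/EBP proteins. Granule proteases and the receptors for G-CSF, GM-CSF and M-CSF are among its known targets.

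Total counts were 20028302 to 29128858 per library. Markers fitted the sorts: the 6 LSK markers summed to 1784 to 3085 CPM (counts scaled to a common library size, with edgeR's TMM factors) in WT LSKs and to 400.0 to 1391 in WT GMPs, and the 7 GMP markers to 2160 to 2850 and 55303 to 71011 CPM. In UREΔ GMPs the GMP markers summed to 74310 to 160843 CPM, above every WT GMP library, and 4 of the 7 (Fcgr3, Fcgr2b, Mpo and Prtn3) were interaction genes. The sums in GMPs were mostly Mpo, which made up as much as 10.3% of a library. Prtn3, by contrast, overlapped between the genotypes in GMPs. 1 library stood apart, UREΔ LSK replicate 3, in which the 5 megakaryocyte markers summed to 752 CPM while the lowest UREΔ LSK library had 63.1 CPM, and in which Ppbp, a platelet chemokine, stood at 355 CPM against 0.078, 0.133 and 0.0836 CPM in the other three. No megakaryocyte or erythroid marker was an interaction gene, and without this library 1700 genes were called, 1004 of the 1047 among them. The 5 eosinophil markers summed to 603 to 1256 CPM in WT GMPs and to 83.9 to 318 CPM in UREΔ GMPs, the 5 markers of mast cells and basophils to 628 to 1236 and 849 to 2338 CPM, and the 6 macrophage markers to 80.5 to 174 and 108 to 344 CPM; of these 16 genes, only Vcam1 was an interaction gene. B cell markers, carried almost wholly by Cd79b, summed to 61.3 to 88.9 CPM in WT GMPs and 8.20 to 23.6 CPM in UREΔ GMPs, with 4 of the 5 below 1 CPM in every GMP library, and Cd79b was itself an interaction gene, with the stronger fall in GMPs. In LSKs the B cell markers summed to 58.1 to 82.6 CPM in WT and 24.6 to 34.9 CPM in UREΔ mice, the 5 T cell markers to 3.20 to 7.54 and 0.464 to 1.896 CPM, and the markers of mast cells and basophils to 23.4 to 44.4 and 87.7 to 157 CPM, each without overlap. In bulk samples, fewer cells of a type and less RNA per cell cannot be told apart, and the part of these markers in the results was not tested. By Y-linked transcripts, 1 of the 4 UREΔ numbers and 3 of the 4 WT numbers were male, and the LSK and GMP library of each genotype and number had the same sex.

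Spi1 itself was an interaction gene. Its level was 127, 69.5, 134 and 166 CPM in WT LSKs of replicates 1 to 4 and 2.85, 4.44, 3.67 and 1.13 CPM in UREΔ LSKs. In GMPs it was 139, 84.8, 181 and 153 CPM in WT and 17.4, 28.6, 23.6 and 15.6 CPM in UREΔ mice. Every UREΔ library lay below every WT library, and every UREΔ GMP library lay above every UREΔ LSK library, whereas the WT ranges of the cell types overlapped. The fall was 5.36 ± 0.42 (SE) on the log2 scale in LSKs and 2.70 ± 0.36 in GMPs, and the interaction was 2.66 ± 0.50 (SE) with an adjusted p of 0.00786 (edgeR quasi-likelihood test, Benjamini-Hochberg adjustment over all genes tested, as for every adjusted p given here). The gene lies on chr2:91082390-91115756, + strand (GRCm38).

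The effect of the deletion was more positive in GMPs for 632 genes (3.97% of the genes tested) and more negative for 415 (2.60%). They were sorted by where the genotype effect was called, at an adjusted p below 0.05 and a fold change above 1.5 in the same fit. At that threshold 1044 genes were lower (6.55%) and 813 higher (5.10%) in UREΔ LSKs, and 1133 were lower (7.11%) and 1596 higher (10.0%) in UREΔ GMPs. Among the interaction genes, 196 were called in LSKs only, of which 150 were lower and 46 higher in UREΔ mice. Another 476 were called in GMPs only, 156 lower and 320 higher. Opposite effects were called for 54, of which 40 fell in LSKs and rose in GMPs and 14 did the reverse. The same direction in both was called for 105: 35 were lower and 12 higher with the stronger effect in LSKs, and 32 were lower and 26 higher with the stronger effect in GMPs. The remaining 216 passed the genotype threshold in neither cell type. Their median interaction in size was 0.72, below the 1.31 over all interaction genes and above the 0.38 over all genes tested (log2 scale).

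**Figure D1:**
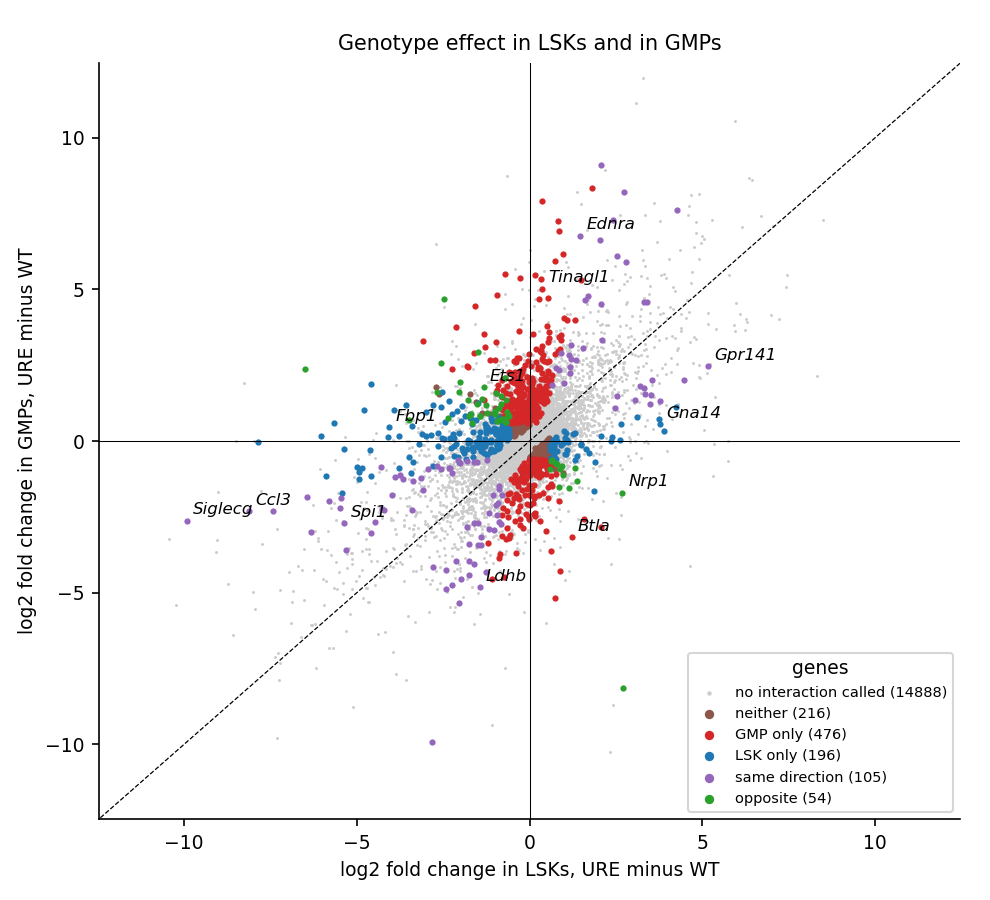
Log2 fold change between UREΔ and WT in GMPs (y axis) against that in LSKs (x axis) for all 15935 genes tested, coloured by class, with the dashed line where both are equal. Genes called in LSKs only lie along the horizontal axis, those called in GMPs only along the vertical axis, and the 54 opposite genes at the upper left and lower right.

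"Only" here means that the other cell type missed the threshold while the difference between them passed its own test. It does not mean no change there. A fold over 1.5 that was not called stood in the other cell type for 39 of the 150 genes lower and 7 of the 46 higher in LSKs only. The same held for 30 of the 156 lower and 50 of the 320 higher in GMPs only. Of the 150 genes lower in LSKs only, 90 had a positive estimate in GMPs, with a median LSK effect of -1.52 and a median GMP effect of 0.12 (log2 scale). Of the 320 higher in GMPs only, 188 had a negative estimate in LSKs, with medians of 1.34 in GMPs and -0.09 in LSKs. For the 156 lower in GMPs only the medians were -1.16 in GMPs and 0.05 in LSKs, and for the 46 higher in LSKs only 1.06 in LSKs and -0.05 in GMPs. Without UREΔ LSK replicate 3 the classes grew to 309 LSK only, 694 GMP only, 107 opposite and 142 same direction, and 913 of the 1047 genes stayed in their class. Other alternatives kept fewer in their class: 518 without WT LSK replicate 1 and 542 without UREΔ GMP replicate 4. A block per cell type and number kept 497, and a fit that also held Y-linked expression 751. The block matters to these counts: without it 194 genes were called, all of them among the 1047, with an unchanged sign for each of the 1047.

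**Figure D2:**
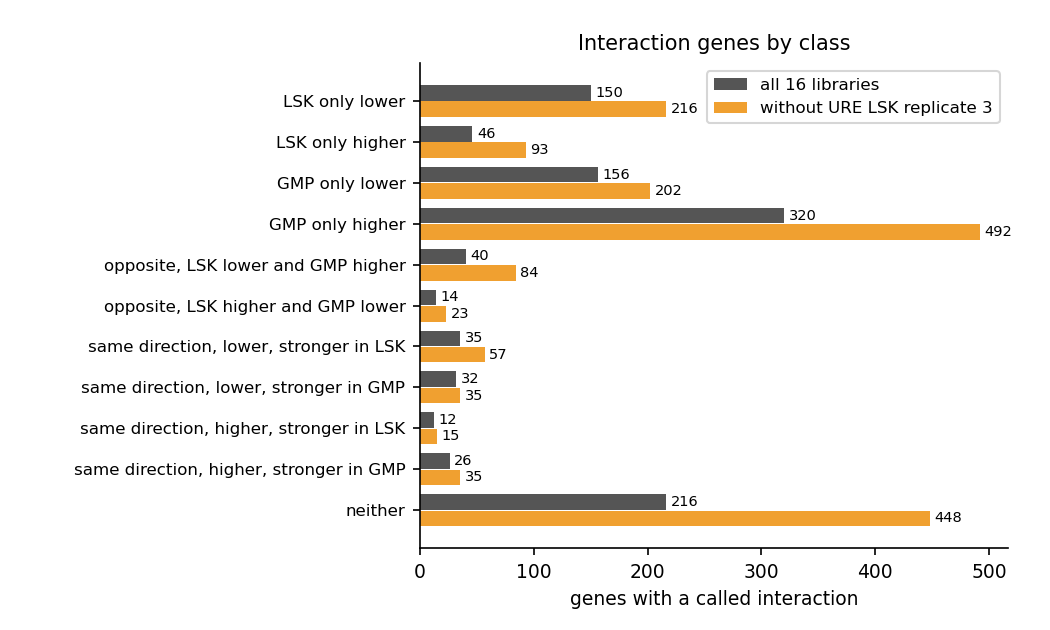
Number of genes with a called interaction (x axis) in each class, with all 16 libraries (grey) and without UREΔ LSK replicate 3 (orange). The largest class is GMP only higher under both, with 320 and 492 genes.

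The interaction can be read as a change in the step from LSK to GMP. For each genotype and number, the step of a gene is its log2 CPM in the GMP library minus that in the LSK library, which gives 4 UREΔ and 4 WT steps. The 4 UREΔ and 4 WT steps did not overlap for 1013 of the 1047 interaction genes and for 2802 of all genes tested (17.6%); the genes were chosen on the same difference, so the first count is only a description. Among genes lower in LSKs only, the median WT step was -0.65 and the median UREΔ step 1.02, and 95 of the 150 were higher in LSKs than in GMPs of WT mice. Genes higher in GMPs only had a median step of -0.45 in WT and 0.85 in UREΔ pairs, and 208 of the 320 were higher in WT LSKs than in WT GMPs. Genes lower in GMPs only ran the other way, with a median of 0.46 in WT and -0.91 in UREΔ pairs, as did those higher in LSKs only, with 0.55 and -0.97. In 206 of the 476 GMP only genes and 89 of the 196 LSK only genes the mean steps of the genotypes had opposite signs.

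The replicate numbers allow a comparison between libraries that chose a gene and libraries that did not. With replicates 1 and 4 alone (8 libraries), 307 genes were called, of which 306 were also tested in the 8 libraries of replicates 2 and 3. There, 299 of the 306 had the same sign, against 65.9% of all 15418 genes tested in both sets, and their median interaction was 1.66 in the direction first seen, against 2.22 in replicates 1 and 4. The 2 shares are not like for like, since the called genes were chosen for a clear interaction. Over all genes tested in both sets, the median size in replicates 1 and 4 was 0.47. Sex and genotype cannot be told apart in replicates 2 and 3, where by Y-linked transcripts both UREΔ numbers were female and both WT numbers male. The sexes matched between genotypes in replicates 1 and 4. Same signs were found for 57 of 58 genes lower in LSKs only, 92 of 95 higher in GMPs only, 45 of 47 lower in GMPs only, 9 of 9 higher in LSKs only and 33 of 33 opposite genes. Replicates 2 and 3 alone called 2 of 16307 genes at the adjusted threshold, while 1248 had an unadjusted p below 0.05.

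Among genes lower in LSKs only, those with the smallest interaction p and at least 10 CPM in a group were Fbp1, Epha7, Plac8, B3gnt8, Cmah and Prtn3. Fbp1 (chr13:62864753-62888282, - strand) encodes fructose-1,6-bisphosphatase, the enzyme of gluconeogenesis that opposes phosphofructokinase. Its level was 30.2, 38.8, 44.8 and 23.7 CPM in WT LSKs and 1.56, 1.72, 2.65 and 2.13 CPM in UREΔ LSKs, a fall without overlap, while WT GMPs had 14.6, 23.97, 26.98 and 15.8 CPM and UREΔ GMPs 30.6, 24.7, 24.3 and 27.7 CPM. The LSK effect was -4.08 ± 0.24 (SE), the GMP effect 0.46 ± 0.21 (SE) with an adjusted p of 0.134, and the interaction 4.53 ± 0.31 (SE) with an adjusted p of 8.85e-06. The UREΔ steps of Fbp1 were all positive and the WT steps all negative. The steps of the genotypes were apart for all 44 leading genes of the classes, which were chosen on this same difference, and all 44 were called without UREΔ LSK replicate 3.

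Epha7 (chr4:28813131-28967499, + strand), a receptor tyrosine kinase for ephrins, was at 21.9, 25.3, 25.97 and 17.4 CPM in WT LSKs and at 0.117, 1.16, 0.0421 and 0.125 CPM in UREΔ LSKs. In GMPs its ranges overlapped, with 29.96 to 50.1 CPM in WT and 35.6 to 61.3 CPM in UREΔ mice, and the interaction was 6.19 ± 0.62 (SE) (adjusted p 0.000136). All UREΔ LSK libraries were far below all others, and the GMP effect of 0.16 ± 0.36 (SE) had an adjusted p of 0.807. Plac8 (chr5:100553725-100572245, - strand), which encodes a small cysteine-rich protein of myeloid cells, was at 257, 563, 476 and 409 CPM in WT LSKs, 7.800, 62.8, 36.7 and 14.3 CPM in UREΔ LSKs, 1087, 2547, 2871 and 1157 CPM in WT GMPs and 1026, 3208, 1709 and 2236 CPM in UREΔ GMPs, with an interaction of 4.22 ± 0.44 (SE) (adjusted p 0.000154). Prtn3 encodes proteinase 3, a serine protease of the primary neutrophil granule. It was at 147, 229, 223 and 253 CPM in WT LSKs and 21.3, 59.5, 46.1 and 28.4 CPM in UREΔ LSKs, and at 1073, 1855, 1840.4 and 1416 CPM in WT GMPs and 988, 2644, 1152 and 2025 CPM in UREΔ GMPs. For Prtn3 the interaction was 2.61 ± 0.30 (SE) (adjusted p 0.000347). Prtn3 shares 159 exonic bases with Plppr3 on the other strand, which unstranded libraries cannot separate.

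2 of the 6 were enzymes that modify glycans. B3gnt8, which extends poly-N-acetyllactosamine chains, averaged 14.6 ± 5.84 CPM (SD, n = 4) in WT LSKs and 1.44 ± 0.98 in UREΔ LSKs, and 30.1 ± 15.1 and 42.3 ± 19.6 in WT and UREΔ GMPs, but 1171 of its 6474 exonic bases overlap Bckdha on the other strand. Cmah, which makes the sialic acid Neu5Gc, averaged 37.8 ± 15.5 and 5.101 ± 0.847 CPM in WT and UREΔ LSKs and 7.44 ± 1.52 and 8.74 ± 2.17 CPM in WT and UREΔ GMPs. The interactions were 3.89 ± 0.42 (SE) and 3.04 ± 0.33 (SE), with adjusted p of 0.000195 and 0.000216. Every WT LSK library stood above every other library for Cmah, whereas for B3gnt8 both GMP groups had higher means than WT LSKs.

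The promoters of these genes were searched for the letters GAGGAAGT, a form of the PU.1 site, on both strands of a window from 250 bases before to 50 bases after the start (RefSeq, GRCm38.p6). Among genes lower in LSKs only, 9 of the 112 with a window (8.04%) held the letters, among those lower in GMPs only 9 of 128 (7.03%), among those higher in GMPs only 11 of 243 (4.53%), among opposite genes 1 of 40 (2.5%), and among all genes tested 437 of 11048 (3.96%). Of all 32851 windows, 3.20% held them. The letters TGTGGTT, a RUNX form that can overlap the first by 1 base at most, were in 10 of 112 (8.93%), 5 of 128 (3.91%), 15 of 243 (6.17%) and 2 of 40 (5%) in the same order, in 4.88% of genes tested and in 5.27% of all windows. For the other classes the shares of GAGGAAGT and TGTGGTT were 3.23% and 3.23% of 31 genes higher in LSKs only. They were 6.52% and 2.17% of 46 genes lower in both cell types and 4% and 0% of 25 higher in both. Of 178 genes called in neither cell type, 3.93% and 2.25% held them. These shares are a description of the letters, and absence from a window says nothing about binding elsewhere. Of the leading genes, 4 had GAGGAAGT within the 250 bases before the start: Fbp1 and Prtn3, which were lower in LSKs only, Btla, which was lower in GMPs only, and Il18rap, which was higher in GMPs only. Their upstream stretches are shown 5′ to 3′ on the gene's strand, with the letters in capitals, since they show the same site before genes of different classes.
Fbp1 (chr13:62888283-62888532, - strand): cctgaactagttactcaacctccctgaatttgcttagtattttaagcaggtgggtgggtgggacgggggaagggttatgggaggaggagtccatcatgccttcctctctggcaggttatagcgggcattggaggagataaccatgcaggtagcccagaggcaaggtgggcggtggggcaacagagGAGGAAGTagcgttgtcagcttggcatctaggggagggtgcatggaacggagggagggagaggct
Prtn3 (chr10:79879417-79879666, + strand): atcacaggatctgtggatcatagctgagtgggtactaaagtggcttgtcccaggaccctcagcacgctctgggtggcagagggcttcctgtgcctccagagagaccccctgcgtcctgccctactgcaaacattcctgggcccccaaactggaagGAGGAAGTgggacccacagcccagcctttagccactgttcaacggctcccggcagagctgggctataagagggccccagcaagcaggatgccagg
Btla (chr16:45224087-45224336, + strand): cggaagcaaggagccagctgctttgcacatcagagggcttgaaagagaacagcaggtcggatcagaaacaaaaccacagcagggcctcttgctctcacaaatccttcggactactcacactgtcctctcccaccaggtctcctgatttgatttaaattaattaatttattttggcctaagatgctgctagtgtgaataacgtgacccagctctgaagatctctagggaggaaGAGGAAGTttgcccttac
Il18rap (chr1:40515112-40515361, + strand): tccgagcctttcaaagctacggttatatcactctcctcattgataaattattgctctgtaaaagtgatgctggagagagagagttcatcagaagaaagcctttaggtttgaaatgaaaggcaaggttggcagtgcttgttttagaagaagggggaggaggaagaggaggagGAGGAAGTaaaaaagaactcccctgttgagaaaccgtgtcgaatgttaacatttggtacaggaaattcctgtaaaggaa

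In these stretches the letters began 65 bases before the start of Fbp1, 95 before that of Prtn3, 18 before that of Btla and 79 before that of Il18rap, each on the gene's own strand. Beside the same letters, Fbp1 had an LSK effect of -4.08 and a GMP effect of 0.46, Prtn3 -2.53 and 0.08, Btla 1.22 and -3.16, and Il18rap -0.25 and 1.58 (log2 scale). The Btla stretch also holds the RUNX letters on the other strand, as AACCACA 179 to 173 bases before the start, not set in capitals. RUNX letters also stood within the 250 bases before the starts of Plac8 and Rab27a.

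The 46 genes higher in LSKs only were led by Matn2, Prune2, Lat2, Gna14, Bin1 and Igsf8. Gna14 (chr19:16435762-16610820, + strand), an alpha subunit of the Gq family of G proteins, was at 2.31, 2.11, 3.09 and 2.700 CPM in WT LSKs and 49.3, 35.5, 23.5 and 32.95 CPM in UREΔ LSKs. WT GMPs had 15.6, 17.3, 11.7 and 15.98 CPM and UREΔ GMPs 35.6, 5.902, 32.3 and 21.9 CPM, with replicate 2 the lowest of all GMP libraries. The interaction of Gna14 was -3.23 ± 0.56 (SE) (adjusted p 0.00461). Matn2, the extracellular matrix protein matrilin 2, was at 5.202 to 10.1 CPM in WT and 25.7 to 58.5 CPM in UREΔ LSKs, a rise, and at 8.77 to 18.9 and 14.9 to 26.5 CPM in WT and UREΔ GMPs, with an interaction of -2.08 ± 0.29 (SE) (adjusted p 0.00129). Lat2, a membrane adaptor of immune receptor signalling, rose in LSKs, with 43.6 to 87.4 CPM in WT and 120.2 to 159.9 CPM in UREΔ mice, while its GMP ranges of 73.4 to 97.3 and 44.3 to 100.3 CPM overlapped. Lat2 shares 952 of 2621 exonic bases with Rfc2 on the other strand. Igsf8, a partner of tetraspanins, was at 29.4, 5.61, 7.38 and 17.5 CPM in WT LSKs and 50.1, 12.2, 12.05 and 51.4 CPM in UREΔ LSKs, and at 50.8, 10.8, 12.9 and 25.99 CPM in WT GMPs and 28.7, 6.84, 8.304 and 33.8 CPM in UREΔ GMPs. The genotypes overlapped in both cell types, yet UREΔ exceeded WT within all 4 numbers in LSKs, and WT exceeded UREΔ within 3 of 4 in GMPs (interaction -1.47 ± 0.27 (SE), adjusted p 0.00675). Prune2 and Bin1, an adaptor of membrane curvature, rose in LSKs by 1.72 and 1.10 and had GMP effects of -0.40 and -0.05 (log2 scale).

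Genes higher in GMPs only formed the largest class, led by H2-Q7, Tinagl1, H2-Q6, Trp53i11, Xpc and Il18rap. Tinagl1 (chr4:130164454-130175122, - strand), a secreted matrix protein, was at 21.5, 17.4, 15.6 and 16.4 CPM in WT LSKs and 19.9, 15.1, 38.9 and 20.6 CPM in UREΔ LSKs. It was nearly absent from WT GMPs, with 0.823, 0.789, 0.684 and 1.14 CPM, and stood at 30.6, 22.04, 25.4 and 34.6 CPM in UREΔ GMPs. The GMP effect was 5.02 ± 0.30 (SE), the LSK effect 0.37 ± 0.24 (SE) and the interaction 4.65 ± 0.38 (SE) (adjusted p 3.33e-05). Tinagl1 was lower in GMPs than in LSKs in all 4 WT pairs and in 1 of 4 UREΔ pairs, that of replicate 3. Il18rap, the accessory subunit of the interleukin 18 receptor, had the same form, with 54.7, 70.5, 78.4 and 61.4 CPM in WT LSKs, 57.95, 54.6, 62.2 and 48.3 in UREΔ LSKs, 17.9, 16.6, 23.5 and 16.9 in WT GMPs and 56.3, 44.7, 59.8 and 61.5 in UREΔ GMPs, and an interaction of 1.83 ± 0.19 (SE) (adjusted p 0.000148). Xpc, which recognizes damaged DNA in nucleotide excision repair, rose in GMPs, with 88.6 to 186 CPM in WT and 226 to 399.9 CPM in UREΔ mice, and stood at 110.4 to 257 and 106 to 207 CPM in WT and UREΔ LSKs. Xpc had an interaction of 1.47 ± 0.15 (SE) with an adjusted p of 0.000136. H2-Q7 and H2-Q6 encode the nonclassical MHC class I molecule Qa-2 and are near-identical copies, so the division of reads between them is uncertain. H2-Q7 was at 25.99, 46.5, 35.8 and 29.1 CPM in WT GMPs and 105, 228, 145 and 179 CPM in UREΔ GMPs, against 71.02 to 118 and 63.3 to 131 CPM in WT and UREΔ LSKs, with an interaction of 2.46 ± 0.18 (SE) (adjusted p 1.5e-05).

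The highest of the 4 group means was that of UREΔ GMPs for 230 of these 320 genes, that of WT LSKs for 51 and that of UREΔ LSKs for 39. Trp53i11 was of the second kind, with 83.7, 24.97, 12.7 and 81.8 CPM in WT LSKs, 78.8, 15.2, 14.9 and 51.9 in UREΔ LSKs, 5.37, 1.54, 0.782 and 5.19 in WT GMPs and 23.7, 9.35, 4.56 and 22.1 in UREΔ GMPs. Its replicates 1 and 4 were high and 2 and 3 low in every group, a difference between numbers that the block removes, and its interaction was 2.61 ± 0.26 (SE) (adjusted p 0.000136).

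Genes lower in GMPs only were led by Ccnd1, Rasa4, Btla, Bcap29, Slc39a6 and Cisd1. Ccnd1 (chr7:144929931-144939925, - strand) encodes cyclin D1, which drives entry into the cell cycle with CDK4 and CDK6. Its level was 59.4, 37.1, 24.02 and 43.7 CPM in WT LSKs and 40.6, 26.3, 28.1 and 44.7 CPM in UREΔ LSKs, which overlap, and 41.9, 30.7, 10.9 and 30.8 CPM in WT GMPs and 3.67, 3.24, 3.69 and 3.66 CPM in UREΔ GMPs, which do not. The interaction was -2.70 ± 0.36 (SE) (adjusted p 0.000971), though 1100 of its 4709 exonic bases overlap LTO1 on the other strand. Btla, an inhibitory receptor of lymphocytes, was at 19.6, 19.6, 19.9 and 8.18 CPM in WT LSKs, 61.03, 44.2, 26.4 and 30.4 CPM in UREΔ LSKs, 6.11, 7.14, 6.01 and 7.83 CPM in WT GMPs and 2.65, 0.261, 0.359 and 0.338 CPM in UREΔ GMPs. All UREΔ LSK libraries lay above all WT ones, but the LSK effect of 1.22 ± 0.41 (SE) had an adjusted p of 0.0675, so that it was counted in GMPs only, with an interaction of -4.38 ± 0.66 (SE) (adjusted p 0.00204). Rasa4, a GTPase-activating protein for Ras, fell in GMPs, with 18.9 to 42.9 CPM in WT and 9.19 to 17.2 CPM in UREΔ mice, and its LSK ranges of 16.3 to 31.3 and 15.6 to 46.3 CPM overlapped. Rasa4 had an interaction of -1.47 ± 0.21 (SE) with an adjusted p of 0.00157. Cisd1, an iron-sulfur protein of the outer mitochondrial membrane, was at 43.6, 67.9, 64.98 and 51.5 and 71.2, 107, 85.3 and 67.99 CPM in WT and UREΔ LSKs and at 43.8, 71.2, 75.2 and 53.7 and 28.4, 31.4, 52.95 and 24.5 CPM in WT and UREΔ GMPs. Its LSK effect of 0.55 had an adjusted p of 0.0251 and missed only the fold threshold, as did the other effect of 10 of the 156 genes of this class. The zinc transporter gene Slc39a6 fell in GMPs by 1.12 and Bcap29, of the endoplasmic reticulum, by 0.68 on the log2 scale, with LSK effects of -0.01 and 0.18.

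**Figure D3:**
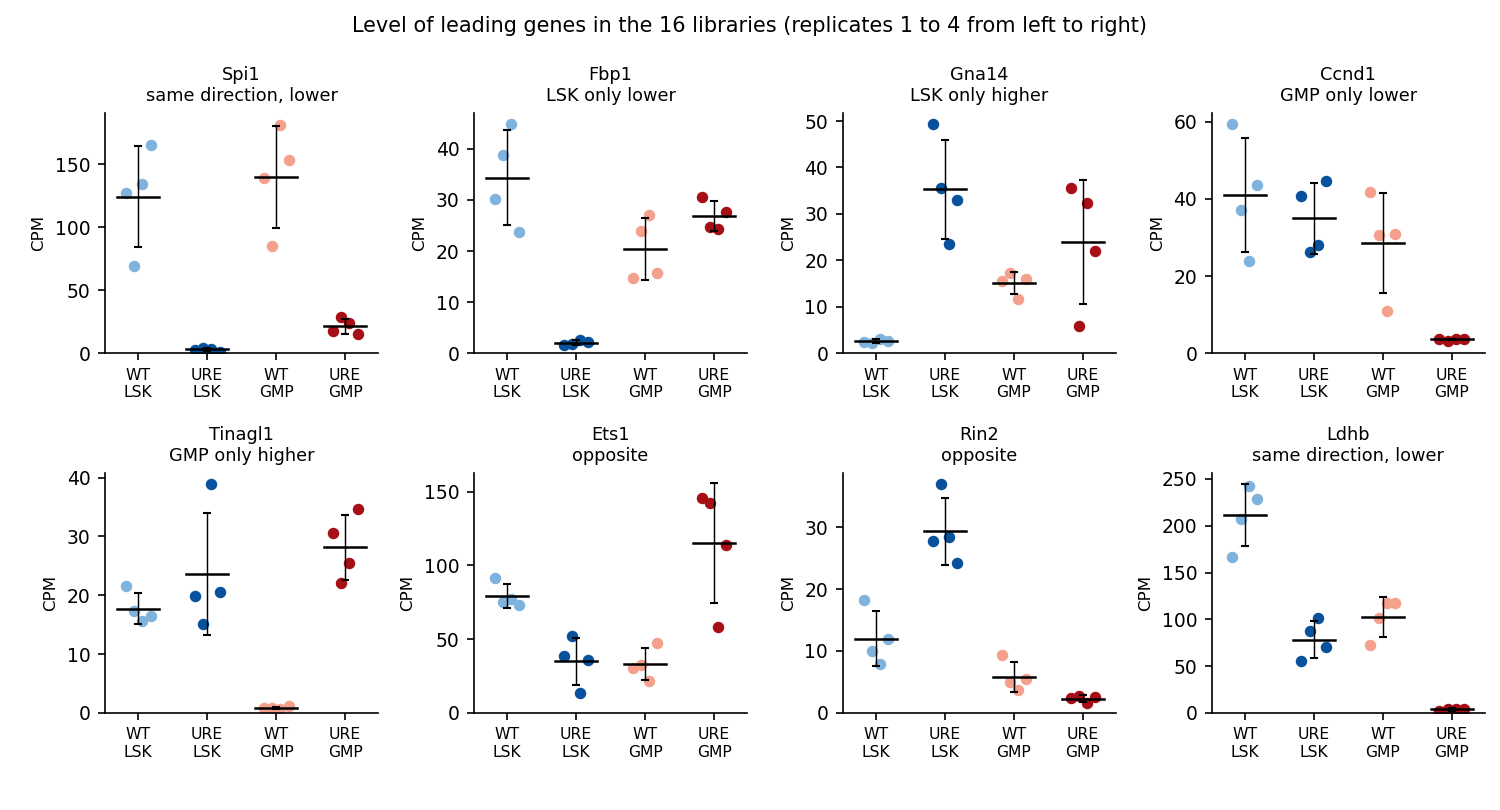
CPM (y axis, linear from 0) of 8 leading genes in the 4 groups (x axis), each point a library, with the mean as a bar and the SD as a whisker (n = 4). Fbp1 is low in UREΔ LSKs alone, Tinagl1 is low in WT GMPs alone, Ccnd1 is low in UREΔ GMPs alone, and the order of the genotypes turns between cell types for Ets1 and Rin2.

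For 54 genes the genotype effect was called in both cell types with opposite signs. Sex was uneven (1 UREΔ and 3 WT numbers were male), and a fit that also held Y-linked expression left 26 opposite genes. Without UREΔ GMP replicate 4 there were 34. Ets1 (chr9:32636221-32757820, + strand), a transcription factor of the family of PU.1 known for its role in lymphocytes, was at 91.3, 75.2, 76.9 and 73.3 CPM in WT LSKs and 38.3, 52.01, 13.7 and 35.7 CPM in UREΔ LSKs. In GMPs the order turned, with 30.3, 32.4, 21.3 and 47.3 CPM in WT and 146, 142, 57.9 and 113 CPM in UREΔ mice, again without overlap. The LSK effect was -1.33 ± 0.26 (SE), the GMP effect 1.76 ± 0.26 (SE) and the interaction 3.09 ± 0.36 (SE) (adjusted p 0.000419). Rab27a, a small GTPase of granule secretion, was at 107, 127, 76.3 and 98.7 CPM in WT LSKs, 33.8, 52.2, 45.4 and 39.01 in UREΔ LSKs, 146, 200.4, 142 and 100.3 in WT GMPs and 266, 545, 193 and 371 in UREΔ GMPs (interaction 2.43 ± 0.29 (SE), adjusted p 0.000433); its WT and UREΔ GMP ranges overlapped although the blocked test called the rise. Clec12a, an inhibitory lectin receptor of myeloid cells, was at 32.5, 46.3, 43.3 and 36.6 CPM in WT LSKs, 10.7, 13.9, 21.9 and 12.8 in UREΔ LSKs, 325, 545, 587 and 321 in WT GMPs and 559, 1169, 561 and 804 in UREΔ GMPs. Clec12a had an interaction of 2.26 ± 0.29 (SE) with an adjusted p of 0.000914, and its WT and UREΔ GMP ranges overlapped. Prss57, a serine protease of neutrophil granules, was at 32.2, 32.3, 36.2 and 37.5 and 7.18, 7.69, 6.15 and 6.02 CPM in WT and UREΔ LSKs and at 157, 198, 175 and 159.6 and 279, 387, 159.8 and 366 CPM in WT and UREΔ GMPs, where replicate 3 did not share the rise. Its interaction was 3.12 ± 0.28 (SE) (adjusted p 5.91e-05), and 1157 of its 2843 exonic bases overlap Fstl3 on the other strand.

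Of the other leading opposite genes, Sqor, which oxidizes sulfide in mitochondria, was at 26.2, 29.7, 16.6 and 28.5 CPM in WT LSKs, 13.8, 21.05, 14.1 and 11.5 in UREΔ LSKs, 19.4, 26.6, 16.9 and 17.6 in WT GMPs and 75.1, 106, 52.7 and 109.9 in UREΔ GMPs. Sqor had an interaction of 2.80 ± 0.26 (SE) with an adjusted p of 8.15e-05. Its WT and UREΔ LSK ranges overlapped, though UREΔ was below WT within every number. Pfkfb4, which sets the level of fructose-2,6-bisphosphate and so the rate of glycolysis, was at 28.7, 12.5, 17.1 and 21.96 and 14.9, 4.54, 11.8 and 10.6 CPM in WT and UREΔ LSKs and at 13.2, 7.73, 8.75 and 12.1 and 41.8, 25.2, 21.6 and 38.4 CPM in WT and UREΔ GMPs. Pfkfb4 had an interaction of 2.56 ± 0.28 (SE) with an adjusted p of 0.000257, and its LSK ranges overlapped in the same way. Phyh, a peroxisomal enzyme of phytanic acid breakdown, had smaller effects of -0.60 ± 0.13 (SE) in LSKs and 0.83 ± 0.13 (SE) in GMPs. P2ry2, a receptor for extracellular nucleotides, fell by 1.67 in LSKs and rose by 0.61 in GMPs, and Tesk2, a protein kinase, fell by 0.69 and rose by 1.34 (log2 scale). The GMP effect of P2ry2 and the LSK effect of Phyh were just past a fold of 1.5, so that both genes lay close to a class called in 1 cell type only.

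Of the 12 leading opposite genes, Rin2 and Otos ran from higher in LSKs to lower in GMPs. Rin2 (chr2:145675215-145887616, + strand), an activator of the endosomal GTPase Rab5, was at 18.2, 9.93, 7.85 and 11.97 CPM in WT LSKs and 27.7, 36.99, 28.4 and 24.3 in UREΔ LSKs, and at 9.31, 5.03, 3.62 and 5.395 CPM in WT GMPs and 2.32, 2.77, 1.54 and 2.53 in UREΔ GMPs. Rin2 had an interaction of -2.67 ± 0.35 (SE) with an adjusted p of 0.000898. Otos, known from the inner ear, was at 15.4 to 43.6 and 43.6 to 64.5 CPM in WT and UREΔ LSKs and at 9.095 to 25.5 and 2.92 to 9.43 CPM in WT and UREΔ GMPs. Otos had an interaction of -2.68 ± 0.35 (SE) with an adjusted p of 0.000966, and its WT and UREΔ GMP ranges overlapped. Bcl2, the inhibitor of apoptosis that is the target of venetoclax, was a further gene of this kind. It was at 68.6, 56.8, 42.7 and 71.6 CPM in WT LSKs and 137, 52.4, 75.8 and 118 CPM in UREΔ LSKs, where replicate 2 was below its WT partner, and at 184, 74.2, 98.7 and 123 CPM in WT GMPs and 94.05, 38.2, 57.5 and 60.6 CPM in UREΔ GMPs. Its LSK effect was 0.59 ± 0.17 (SE) (adjusted p 0.0356), its GMP effect -0.93 ± 0.17 (SE) (adjusted p 0.0018) and its interaction -1.52 ± 0.24 (SE) (adjusted p 0.00301); the LSK effect was just past a fold of 1.5, and the WT and UREΔ ranges overlapped in both cell types. Nrp1, the neuropilin co-receptor for semaphorins and VEGF, was at 2.63, 2.62, 1.84 and 1.13 CPM in WT LSKs, 30.5, 9.18, 2.78 and 19.1 in UREΔ LSKs, 30.3, 19.9, 17.3 and 17.2 in WT GMPs and 8.87, 10.5, 2.87 and 5.69 in UREΔ GMPs. Nrp1 had an interaction of -4.38 ± 0.64 (SE) with an adjusted p of 0.00183.

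**Figure D4:**
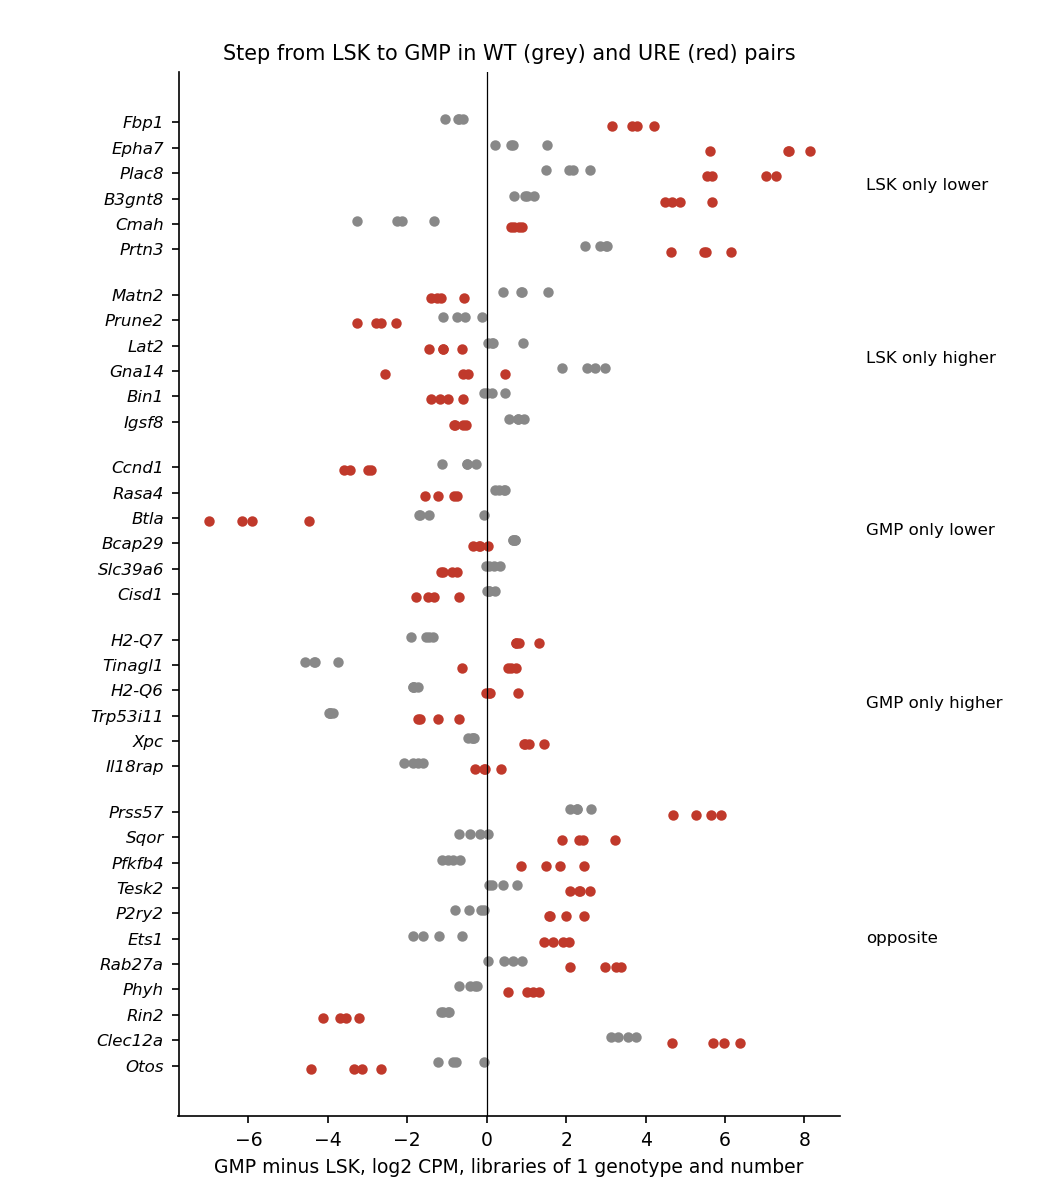
Step from LSK to GMP (x axis, log2 CPM of the GMP library minus that of the LSK library of the same genotype and number) for leading genes of the LSK only, GMP only and opposite classes, with WT pairs in grey and UREΔ pairs in red (4 each). The colours do not overlap for any gene shown, and the genes were chosen on this same difference.

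Where both cell types moved the same way, the size differed. Siglecg, an inhibitory receptor for sialic acids, had 12.8 to 14.3 CPM in WT LSKs and a single count over all UREΔ LSK libraries, so that no fold is given; it was at 8.16 to 16.98 CPM in WT GMPs and 0.871 to 5.07 CPM in UREΔ GMPs (adjusted p of the interaction 0.000433). In the other direction, Gpr141, an orphan G protein-coupled receptor, rose in both, with 0.673, 0.94, 0.586 and 0.363 CPM in WT LSKs, 22.3, 24.4, 23.1 and 20.7 in UREΔ LSKs, 25.3, 35.9, 36.2 and 17.3 in WT GMPs and 154, 221, 119.8 and 136 in UREΔ GMPs. Gpr141 had an interaction of -2.69 ± 0.29 (SE) with an adjusted p of 0.000195. UREΔ LSKs had Gpr141 levels within the range of WT GMPs. Sulf2, a sulfatase of heparan sulfate, rose in both, with 2.65 to 4.57 CPM in WT and 58.6 to 118 CPM in UREΔ LSKs and 2.33 to 3.51 CPM in WT and 9.98 to 15.7 CPM in UREΔ GMPs. Sulf2 had an interaction of -2.45 ± 0.28 (SE) with an adjusted p of 0.00031.

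With the stronger effect in GMPs, Ldhb had the smallest adjusted p of all 1047 genes. Ldhb (chr6:142490249-142507957, - strand) encodes the B subunit of lactate dehydrogenase, and it was at 166, 207, 243 and 228 CPM in WT LSKs, 55.03, 86.98, 101 and 70.3 in UREΔ LSKs, 72.6, 102, 117 and 118 in WT GMPs and 1.88, 3.92, 4.36 and 4.56 in UREΔ GMPs. The effects were -1.45 ± 0.13 (SE) in LSKs and -4.82 ± 0.16 (SE) in GMPs, with an interaction of -3.37 ± 0.19 (SE) (adjusted p 1.62e-06). Abcb1b, a P-glycoprotein efflux pump, was at 38.8 to 50.8 and 22.7 to 31.05 CPM in WT and UREΔ LSKs and at 28.9 to 44.1 and 4.24 to 5.64 CPM in WT and UREΔ GMPs. Abcb1b had an interaction of -1.92 ± 0.17 (SE) with an adjusted p of 5.91e-05. Ednra, the endothelin receptor type A, was at or below 3.75 CPM in every LSK library and at 0.91, 1.29, 0.733 and 0.623 CPM in WT GMPs, against 115, 122, 50.5 and 107 CPM in UREΔ GMPs. Ednra had an interaction of 5.31 ± 0.47 (SE) with an adjusted p of 5.91e-05. Ptgds, prostaglandin D2 synthase, rose in both, with 1.89 to 4.18 CPM in WT and 7.95 to 16.1 CPM in UREΔ LSKs and 0.635 to 1.37 CPM in WT and 15.5 to 36.9 CPM in UREΔ GMPs. Ptgds had an interaction of 3.09 ± 0.39 (SE) with an adjusted p of 0.000726.

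Lists of genes with known roles were then read against the interaction genes, with counts beside the 3.97% and 2.60% of all genes and medians beside a median interaction of 0.03 over all genes. Of 109 named genes, 62 lost their call with no block. With a block per cell type and number, which kept 530 of the 1047 calls, 27 lost it, and their adjusted p is given as that of the cell type block. Of 12 genes of primary neutrophil granules, 4 were interaction genes and all 4 had a more positive effect in GMPs (median 0.50). The call of Srgn was lost with the LSK and GMP libraries of 1 genotype and number as the block (adjusted p 0.0661) and with the cell type block (0.097). Besides Prtn3 and Prss57 these were Mpo, the myeloperoxidase of the primary granule, and Srgn, the proteoglycan that packs granule proteins. Mpo was at 769, 955, 1241 and 959.6 CPM in WT LSKs and 522, 1124, 854 and 749.8 in UREΔ LSKs, which overlap, and at 48541, 59246, 43585 and 50721 CPM in WT GMPs and 87025, 129222, 61020.0 and 89942 in UREΔ GMPs, which do not. Mpo had an interaction of 1.16 ± 0.29 (SE) with an adjusted p of 0.0304. The granule list was split over classes: Prtn3 was lower in LSKs only, Prss57 opposite, and Mpo and Srgn higher in GMPs only, the steps of Srgn overlapping between genotypes. Of 19 late neutrophil genes 4 were interaction genes, and the cell type block lost Anxa1 (adjusted p 0.0793) and Mmp8 of these. Among the 4 was Lcn2, the siderophore-binding lipocalin of secondary granules, at 0.547 to 2.62 and 0.843 to 2.45 CPM in WT and UREΔ LSKs and at 1.65, 3.36, 2.05 and 2.59 and 28.3, 43.9, 20.6 and 43.02 CPM in WT and UREΔ GMPs. Lcn2 had an interaction of 3.30 ± 0.46 (SE) with an adjusted p of 0.00121. Pglyrp1, a bactericidal protein that binds peptidoglycan, was opposite, with effects of -0.91 and 0.65, whereas Mmp8, neutrophil collagenase, was lower in GMPs only, at 6.93, 6.19, 9.68 and 4.82 CPM in WT and 0.627, 2.09, 0.359 and 0.338 CPM in UREΔ mice (adjusted p 0.0437, and 0.0508 and 0.0881 with these other blocks).

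Of 25 monocyte genes, 17 were called lower in LSKs and 18 in GMPs (6.55% and 7.11% of all genes), and 5 (20%) were interaction genes, against 6.57% of all genes. Fcer1g, the shared gamma chain of Fc receptors, and Lyz2, lysozyme of phagocytes, fell in LSKs only. Lyz2 was at 249.7, 323, 268 and 323 CPM in WT LSKs, 70.7, 104, 182 and 64.9 in UREΔ LSKs, 168, 265, 266 and 198 in WT GMPs and 132, 374, 199 and 192 in UREΔ GMPs, where the genotypes overlapped. Lyz2 had an interaction of 1.52 ± 0.35 (SE) with an adjusted p of 0.0209. Cx3cr1, the fractalkine receptor of monocytes, fell in both and more in LSKs, and Klf4, a transcription factor of monocytes, fell in GMPs only, at levels of 0.693 to 1.66 CPM in WT and 0.0482 to 0.366 CPM in UREΔ mice. Among 13 genes for chemokines and their receptors, Ccl3, Ccr1 and Cx3cr1 were interaction genes, each with the more negative effect in LSKs. Ccr1 and Cx3cr1 lost their calls with the cell type block (adjusted p 0.101 and 0.0603). Ccl3, a chemokine of myeloid cells, was at 9.102, 18.6, 23.2 and 10.9 CPM in WT LSKs and 0.078, 0.0663, 0 and 0.0418 CPM in UREΔ LSKs, and at 0.693 to 1.71 and 0.0563 to 0.41 CPM in WT and UREΔ GMPs (adjusted p 0.00111). The Fc receptor genes Fcgr3 and Fcgr2b, whose products define the GMP gate, were interaction genes too; Fcgr3 was at 8.49, 11.8, 13.1 and 10.03 and 8.07, 23.3, 16.2 and 11.5 CPM in WT and UREΔ LSKs and at 229, 424, 387 and 248 and 508, 1329, 764 and 697 CPM in WT and UREΔ GMPs, and since the sort used this protein its GMP level is not read further.

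All 3 interaction genes among the 10 MHC class II genes had the more negative effect in GMPs (list median -0.88). Markers of dendritic cells and B cells, which carry class II molecules, moved with them. The macrophage sum did not fall in GMPs, at 80.5 to 174 CPM in WT and 108 to 344 CPM in UREΔ mice. The 5 dendritic cell markers summed to 2.80 to 5.82 CPM in WT and 0.482 to 1.097 CPM in UREΔ GMPs. The B cell sum, nearly all Cd79b, fell as given above, while the other 4 B cell markers were below 1 CPM in every GMP library. In LSKs the dendritic cell sums overlapped, with 1.49 to 5.34 CPM in WT and 0 to 2.74 CPM in UREΔ mice, and the part of these markers in the class II values was not tested. Cd74, the invariant chain, was at 235, 269, 328 and 121 CPM in WT LSKs, 45.5, 95.3, 58.2 and 38.2 in UREΔ LSKs, 116, 163, 119 and 115 in WT GMPs and 4.15, 2.66, 12.7 and 4.28 in UREΔ GMPs. Cd74 had an interaction of -2.55 ± 0.49 (SE) with an adjusted p of 0.00816. H2-Aa, an alpha chain that presents peptides, showed the same order, with effects of -1.50 in LSKs and -3.44 in GMPs. H2-Aa had an interaction of -1.94 ± 0.28 (SE) with an adjusted p of 0.00157. H2-DMa, which loads peptides onto class II molecules, fell in GMPs only, from 141, 194, 227 and 184 to 60.3, 86.5, 115 and 60.8 CPM, while its LSK values of 171 to 243 and 149 to 269 CPM overlapped. H2-DMa had an interaction of -1.13 ± 0.18 (SE) with an adjusted p of 0.0031. The stem cell and early progenitor list had 3 interaction genes among 25, Procr, Hoxa9 and Tek, each more negative in GMPs. With the cell type block Hoxa9 and Tek were not called (adjusted p 0.0534 and 0.0737). Procr, the endothelial protein C receptor used to mark stem cells, was at 36.8 to 63.9 and 35.5 to 73.4 CPM in WT and UREΔ LSKs and at 2.82, 3.57, 2.15 and 2.85 and 1.495, 0.366, 0.923 and 0.394 CPM in WT and UREΔ GMPs (adjusted p 0.0108). Hoxa9, a homeobox factor of progenitors, was at 33.96, 52.2, 52.7 and 64.1 and 18.6, 36.98, 33.4 and 19.7 CPM in WT and UREΔ GMPs, where they overlapped, and Tek, the angiopoietin receptor, at 17.4, 15, 5.28 and 27.3 and 0.531, 0.627, 0.769 and 0.225 CPM, where they did not.

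Cytokine receptors went both ways, with 10 interaction genes among 27. Il6st, the gp130 chain shared by receptors of the interleukin 6 family, was at 141, 60.8, 30.8 and 83.7 CPM in WT LSKs and 85.99, 23.6, 29.03 and 65.4 in UREΔ LSKs, and at 182, 56.6, 32.99 and 95.7 CPM in WT GMPs and 9.12, 13.6, 4.56 and 8.73 in UREΔ GMPs. Il6st had an interaction of -2.51 ± 0.45 (SE) with an adjusted p of 0.00554. Csf2ra, the alpha chain of the GM-CSF receptor, was lower in GMPs only, at 61.8, 55.4, 67.1 and 73.5 CPM in WT and 10.4, 24.9, 18.4 and 13.7 CPM in UREΔ mice, and Il10rb, of the interleukin 10 receptor, fell in GMPs by 1.15 on the log2 scale. Csf3r, the G-CSF receptor, was higher in GMPs only, at 206, 114, 36.6 and 248 CPM in WT and 343, 343, 119.8 and 434 CPM in UREΔ mice (adjusted p of the interaction 0.0486), as were Il3ra, Ifngr1 and Tnfrsf1b. Scaling by relative log expression size factors instead of TMM lost the call of Csf3r (adjusted p 0.0512). Ifngr1, the ligand-binding chain of the interferon gamma receptor, was at 519 to 666 CPM in WT and 1109 to 1651 CPM in UREΔ GMPs (adjusted p 0.00596), and its LSK effect of 0.43 missed the fold threshold. Flt3, the receptor of multipotent and lymphoid progenitors, fell in both, by 1.62 in LSKs and 2.70 in GMPs on the log2 scale; its interaction of -1.08 ± 0.29 (SE) had an adjusted p of 0.0416, and of 0.0528 without UREΔ LSK replicate 3. The cell type block lost the calls of Flt3, Il3ra and Tnfrsf1a (adjusted p 0.0641, 0.0652 and 0.0858).

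The lymphoid priming list had 8 interaction genes among 20, 7 of them more positive in GMPs (median 0.98). Of the 8, the cell type block lost Lck, Tcf7, Vpreb1, Igll1 and Flt3, with adjusted p of 0.0517 to 0.0851. The B and T cell markers, as given above, were lower in UREΔ LSKs without overlap, and their part in these values was not tested. Satb1, a chromatin organizer of lymphoid progenitors, fell in LSKs only, from 107, 102, 117 and 72.8 to 33.97, 36.3, 30.7 and 25.3 CPM (interaction 1.12 ± 0.22 (SE), adjusted p 0.00906), its GMP effect of -0.53 being under the fold threshold. Rag2, of the recombinase of antigen receptor genes, fell more in LSKs, from 11.95, 26.8, 13.8 and 9.91 to 0.936, 1.46, 1.095 and 0.544 CPM, than in GMPs (adjusted p 0.0014). Tcf7, a T cell factor, rose in GMPs only, from 0.346, 0.914, 1.22 and 0.415 to 6.704, 2.402, 4.66 and 3.43 CPM (adjusted p 0.0247, and 0.0678 with the cell type block), and Lax1, an adaptor of lymphocytes, from 1.08, 1.33, 1.12 and 0.882 to 7.14, 4.07, 5.43 and 7.04 CPM (adjusted p 0.0027). Vpreb1 and Igll1, of the surrogate light chain, stayed below 3 CPM in every library. Among transcription factors, 4 of 35 were interaction genes, and beside Spi1 and Klf4 these were Bach2, a repressor of myeloid genes in lymphoid cells, at 9.18, 4.57, 4.74 and 8.56 CPM in WT and 2.94, 3.08, 2.36 and 1.35 CPM in UREΔ GMPs, and Id1, an inhibitor of E proteins, at 2.43, 8.02, 7.82 and 3.11 and 7.67, 15.7, 11.6 and 19.6 CPM, with its call lost under the cell type block (adjusted p 0.0864). Bach2 shares 537 exonic bases with its antisense gene Bach2os.

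Glucose metabolism had 5 interaction genes among 26, which fell into 4 classes. Beside Fbp1, Pfkfb4 and Ldhb these were 2 hexokinases with opposite signs. Hk3, the hexokinase of myeloid cells, fell in LSKs only, from 79.99, 80.3, 50.3 and 90.1 to 15.8, 18.8, 14.8 and 14.6 CPM (interaction 1.70 ± 0.28 (SE), adjusted p 0.00324), whereas Hk2 rose in LSKs only, from 24.97, 57.2, 26.1 and 27.97 to 60.7, 59.03, 39.5 and 54.8 CPM with an overlap (interaction -1.13 ± 0.27 (SE), adjusted p 0.0259). Hk2 was not called with the cell type block (adjusted p 0.057). Of 30 cell cycle genes 3 were interaction genes, Ccnd1, the CDK inhibitor gene Cdkn1a and the replication helicase gene Mcm3, with interactions of -2.70, 1.05 and -0.45. Mcm3 was not called with the cell type block (adjusted p 0.133). Of 31 genes of autophagy and survival 5 were interaction genes. Bbc3, Lamp1 and Fbxl8 lost their call with the cell type block (adjusted p 0.0864, 0.102 and 0.0972). Sqstm1, the autophagy receptor p62, rose in GMPs only, from 137, 181, 107 and 115 to 226, 300.2, 241 and 294 CPM, with LSK values of 188 to 291 and 142 to 287 CPM. Sqstm1 had an interaction of 1.02 ± 0.23 (SE) with an adjusted p of 0.0213. Bbc3, the proapoptotic BH3 protein PUMA, rose in GMPs only, with 0.789 to 1.12 CPM in WT and 1.79 to 4.11 CPM in UREΔ mice, and Lamp1, a lysosomal membrane protein, fell in GMPs only, with steps that overlapped between genotypes.

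Of 16 interferon-stimulated genes, 12 were called lower in LSKs and 9 in GMPs (6.55% and 7.11% of all genes), and 3 were interaction genes. Ifit3 fell in LSKs only, from 40.6, 34.7, 25.7 and 24.02 to 2.92, 4.04, 1.64 and 2.93 CPM (adjusted p 0.0249), and Oas1a fell more in GMPs, with 35.6 to 67.9 CPM in WT and 1.98 to 3.95 CPM in UREΔ mice (adjusted p 0.0238). With the cell type block none of the 3, which include Ifi27l2a, was called (adjusted p 0.0562 for Ifit3, 0.0536 for Oas1a and 0.0736 for Ifi27l2a). Of 16 endothelial and vascular genes, 4 were interaction genes, among them Pecam1, an adhesion molecule, which rose in GMPs only from 174, 148, 129 and 171 to 293, 308, 229 and 402 CPM and was at 122 to 154 and 77.2 to 116 CPM in WT and UREΔ LSKs (interaction 1.54 ± 0.20 (SE), adjusted p 0.00101), where its effect of -0.56 missed the fold threshold. The lists of erythroid and megakaryocyte genes (22 tested) and of mast cell, basophil and eosinophil genes (12 tested) held 0 interaction genes by the edgeR test, though 4 and 3 of their genes had an unadjusted p below 0.05 and DESeq2 called 3 and 2. Median interactions of these lists were -0.09 and -0.94, against 0.03 over all genes (log2 scale).

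The study drew 4 gene signatures from single cells of the same genotypes, so these are not independent of the direction of the effects. Signature 4 had the largest share of interaction genes, 222 of 708 genes tested (31.4%), against 6.57% of all genes tested. Of the 222, 213 were more positive in GMPs and 149 fell in the class higher in GMPs only. Shares for signatures 1 to 3 were 20.1%, 22.5% and 17.4%. In signature 3, 46 of 345 were more positive and 14 more negative in GMPs. Signatures 1 and 2 leaned the other way, with 40 more negative against 14 more positive among 269 genes and 79 against 49 among 570. Over all genes tested, 3.97% were more positive and 2.60% more negative in GMPs. Signatures 1 and 2 were above both of these shares. Median interactions were -0.23, -0.21, 0.29 and 0.66 for signatures 1 to 4 (log2 scale). The median effect of each signature had the same sign in both cell types and was larger in size in GMPs, -0.42 in LSKs and -0.65 in GMPs for signature 1, -0.51 and -0.64 for signature 2, 0.46 and 0.75 for signature 3, and 0.30 and 0.99 for signature 4.

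**Figure D5:**
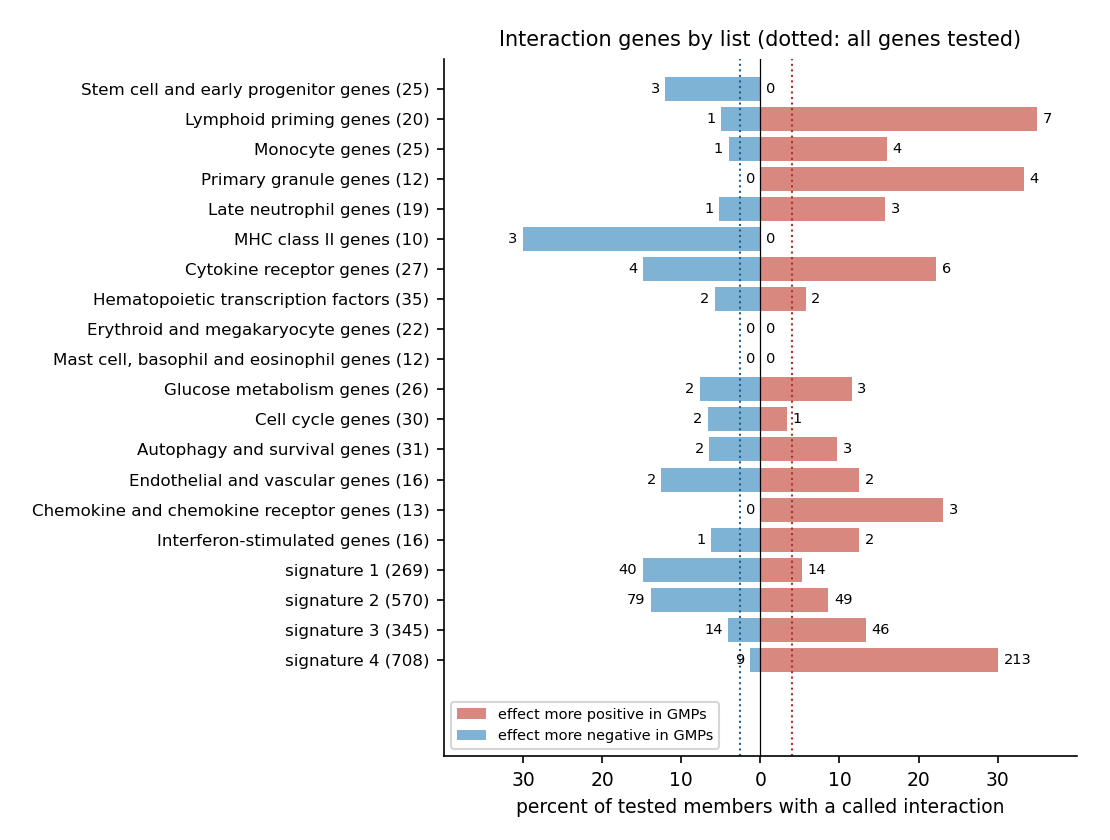
Percent of the tested genes of each list (number in parentheses) with a called interaction, to the right where the effect was more positive in GMPs and to the left where it was more negative, with counts at the bars and dotted lines at 3.97% and 2.60%, the shares over all genes tested. Primary granule genes extend only to the right and MHC class II genes only to the left.

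At the edge of the threshold, Knop1 and Krt7 were the last genes called, both with an adjusted p of 0.0499, and Rbm25 and Adam10 the first not called, with 0.0502 and 0.0503. Knop1, a lysine-rich nucleolar protein, had an interaction of -0.50 ± 0.14 (SE), while Krt7, a keratin, had 4.16 ± 1.17 (SE) at levels down to 0 in UREΔ LSKs. With the cell type block Knop1 was not called (adjusted p 0.129). Rbm25, a splicing factor, and Adam10, a sheddase, had -0.50 ± 0.14 (SE) and -0.55 ± 0.16 (SE).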

How the data were processed

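RNA-seq libraries were made from sorted LSKs and GMPs of UREΔ and WT mice (4 per group) with a low-input polyA kit from up to 10 ng of RNA, paired-end and without strand or molecular identifiers. Per the labels and the study's methods, the authors quantified reads with Salmon on GRCm38 and deposited estimated counts per gene; the Salmon version and the annotation release for these libraries are not given in the sources used here. The deposited expected counts were rounded to whole numbers. All 54347 genes carried a name. Total counts of 20028302 to 29128858 per library limit precision by counting error. SDs given here also hold the spread between the libraries of a group, and SEs the spread left after the replicate block.

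edgeR 4.0.16 (R 4.3.3) was used with TMM scaling, filterByExpr and a quasi-likelihood fit of 4 group means plus the replicate number, with Benjamini-Hochberg adjustment over 15935 genes. SEs are the log2 change divided by the root of the F statistic. Levels are CPM with TMM-scaled library sizes, and steps use log2 CPM with a prior count of 2. The script was tested on simulated data.

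The sources used here do not tie the replicate numbers to mice or days. The numbers were taken to pair the samples from the data: the correlation of deviations from group means was 0.237 to 0.711 over all same-numbered pairs and averaged -0.14 to -0.17 (-0.13 within a cell type) over pairs of other numbers, which ran from -0.592 to 0.409 and so overlapped the first range. Because deviations from a mean cancel within a group, a positive average over same-numbered pairs forces a negative one over the others. The negative average is therefore no separate evidence for the pairing. UREΔ GMP replicate 4, for example, had 0.237 with WT GMP replicate 4 and 0.385 with WT GMP replicate 1. p-values rest on the spread between libraries that is left after the replicate block. Apart from that block, the main fit took the LSK and GMP libraries of the same genotype and number as independent.

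Named genes were, in each class, those with the smallest interaction p among protein-coding genes with at least 10 CPM in a group mean, and the called genes of 16 lists; 2 leading genes are not reported here, and the interaction genes and all lists were chosen with earlier results of these data known. A gene called at a group of 3 counts or fewer has no fold given. Coordinates and exon overlaps are from GENCODE M21 (GRCm38), in which 12 tested genes, 0 of them interaction genes, were not found; promoter windows are from RefSeq (GRCm38.p6) and matched 803 interaction genes by symbol or identifier. Alternatives were DESeq2 1.42.0, other blocks, scalings, filters and thresholds, a Y-linked covariate, thinned counts and each library left out.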

Additional observations from a re-analysis of the deposited data

Results flagged for a closer look

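By the interaction test, loss of the enhancer acted differently in the 2 cell types for 632 genes in the positive and 415 in the negative direction, and by class for 196 genes called in LSKs only, 476 in GMPs only, 54 opposite and 105 in the same direction.

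In 240 sets of 4 libraries checked (leading genes and marker sums by group), 15 had 1 library far from the other three by Dixon's criterion, which chance gives in about 1 of 20. In UREΔ GMPs these were Prune2 in replicate 2 at 1.31 CPM, Ccnd1 in replicate 2 at 3.24 CPM (the others at 3.66 to 3.69 CPM), Btla in replicate 1 at 2.65 CPM and Ednra in replicate 3 at 50.5 CPM. In UREΔ LSKs they were Tesk2 in replicate 3 at 3.08 CPM, Sulf2 in replicate 1 at 118 CPM, Siglecg in replicate 2 at 0.0331 CPM (its single count) and Ptgds in replicate 2 at 16.1 CPM. In WT LSKs they were Btla in replicate 4 at 8.18 CPM, Slc39a6 in replicate 3 at 67.4 CPM and Siglecg in replicate 4 at 14.3 CPM. Summed marker levels stood apart in UREΔ LSK replicate 4 for GMP markers (2871 CPM) and eosinophil markers (28.6 CPM), and in WT LSK replicate 4 for mature neutrophil markers (2.86 CPM) and dendritic cell markers (1.49 CPM). The megakaryocyte sum of UREΔ LSK replicate 3 (752 CPM), described above as standing apart, was not among the 15. The list therefore does not follow the linear CPM printed here in every set. All 44 leading genes kept their call with UREΔ LSK replicate 3 left out.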

How the results depend on the processing

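In the order positive, negative, LSK only, GMP only, opposite and same direction, the counts were 632, 415, 196, 476, 54 and 105. Without the replicate block they were 138, 56, 51, 101, 9 and 26, and 194 of the 1047 calls were kept; with the pairing of LSK and GMP libraries of 1 genotype and number as the block, 1190 genes were called, 941 of the 1047 among them. With that block 10 named genes lost their call with adjusted p of 0.0508 to 0.0692 (Mmp8, Srgn, Tnfrsf1a, Lamp1, Mcm3, Id1, Vpreb1, B2m, Ifi27l2a and Knop1). A block per cell type and number kept 530 of the 1047 calls, lost those of 27 named genes (adjusted p 0.051 to 0.133) and gave 369 positive, 169 negative, 107 LSK only and 267 GMP only genes. DESeq2, run on 31079 genes with no filter on low counts but its own, gave 980 positive, 872 negative, 411 LSK only and 158 same direction genes, with all 1047 among its calls. Within the 15935 genes of the edgeR test it called 1664. An adjusted p below 0.01 left 215, 94, 79, 155, 15 and 32. Replicates 1 and 4 alone gave 213, 94, 67, 142, 34 and 62, and replicates 2 and 3 alone 1, 1, 1, 0, 0 and 1, with 8 libraries fitted in each. An interaction of at least 1 on the log2 scale left 203 negative genes, no fold threshold made 87 genes opposite, and a Y-linked covariate 26.

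Leaving out each library in turn gave 390 to 1024, 173 to 676, 119 to 309, 275 to 694, 34 to 107 and 65 to 142 genes. The total of 1047 moved by over 1.5 times without UREΔ LSK replicate 3 (1700), WT LSK replicate 1 (563), UREΔ GMP replicate 4 (617), WT GMP replicates 2 (630) and 4 (655), UREΔ LSK replicate 1 (673) and WT LSK replicate 2 (677), with the sign of all 1047 unchanged in each. The cause was not tested. Of 3037 values of 109 named genes under these alternatives, 2461 stayed on their side of the threshold, 576 did not and 0 reversed. Scaling moved the median of all genes by at most 0.04 (log2 scale).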

Other observations

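3 further groups of genes were drawn up after values had been seen, so their counts are descriptions. Of 11 MHC class I genes, 6 (54.5%) were interaction genes, all more positive in GMPs, against 3.97% of all genes tested. B2m and H2-T22 were not called with a block per cell type and number (adjusted p 0.098 and 0.051). B2m, the shared light chain, had effects of -0.61 in LSKs and 0.54 in GMPs, and H2-K1, a classical heavy chain, -0.42 and 0.52, with interactions of 1.14 ± 0.30 and 0.93 ± 0.15 (log2 scale, SE). H2-D1 rose in GMPs only, with 1263 to 1998 CPM in WT and 2352 to 3240.4 CPM in UREΔ mice. Class I genes are close paralogs, between which reads may be divided wrongly.

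Of 13 genes of purine synthesis, 4 (30.8%) were interaction genes, against 6.57% of all genes tested, and 3 of them were more negative in GMPs. Pfas, an enzyme of the de novo pathway, had 111, 107, 165 and 115 CPM in WT LSKs, 158, 174, 147 and 227 in UREΔ LSKs, 261, 219, 269 and 349 in WT GMPs and 166, 123, 154 and 129 in UREΔ GMPs, and an interaction of -1.43 ± 0.24. Gart, of the same pathway, had -0.95 ± 0.15, Adss -0.69 ± 0.15 and Adssl1, the other adenylosuccinate synthetase, 1.25 ± 0.25. Of 12 genes of serine and one-carbon metabolism, 3 (25%) were interaction genes, Mthfd2, Shmt1 and Psat1, with interactions of -0.64 ± 0.17, -0.59 ± 0.11 and -0.82 ± 0.17, all more negative in GMPs. Mthfd2 was not called with the block per cell type and number (adjusted p 0.0946).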
